A study of Arabidopsis thaliana with 48 samples.

Results

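The genes nad2, nad5, nad6 and cox1 lie in the mitochondrial genome of Arabidopsis thaliana, and their transcripts were measured here in guard cells and whole leaves. All probe sets of the array that the platform annotation ties to 1 of these 4 genes were taken. The 4 genes are among 13350 genes named by a probe set of their own, and their probe sets were 5 of the 22746 tested: cox1, nad2 and nad6 had 1 each, and nad5 had 2 (257337_at and 257338_s_at), which are given separately throughout. The genes were picked out for their difference between guard cells and leaves of wild type without ABA, where nad6, nad5 and cox1 were far higher in guard cells and nad2 was not, so that contrast is described without a test.

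Mitochondria make ATP with a chain of protein complexes in the inner mitochondrial membrane, and the mitochondrial genome still encodes some of their core subunits. The nad genes encode membrane subunits of complex I (NADH dehydrogenase), which passes electrons from NADH to ubiquinone, while cox1 encodes the catalytic core of complex IV (cytochrome c oxidase), which reduces oxygen. The transcripts of nad2 and nad5 are assembled from separately transcribed pieces by trans-splicing, so a probe in one piece need not follow another. In the Columbia accession a large, nearly intact copy of the mitochondrial genome also sits in chromosome 2. Transcripts of that nuclear copy and of the mitochondrial genes cannot be told apart by probes that match both, and the names of nad6 244953_s_at and nad5 257338_s_at carry the suffix for probes shared by several transcripts.

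The samples were 48 single-colour arrays in 16 groups of 3 independent biological replicates. Guard cells isolated from leaves made 24 arrays and whole leaves the other 24, each from 4 genotypes: agb1 (agb1-2, a mutant of the G protein beta subunit), gpa1 (gpa1-4, a mutant of the alpha subunit), the double mutant agb1 gpa1 (agb1-2 gpa1-4) and the Columbia (Col-0) wild type, WT. Every genotype was given 50 µM abscisic acid (ABA, the drought hormone that closes stomata) for 3 h or the solvent ethanol (EtOH), with plants 5 weeks old in days of 8 h light and 16 h dark. Each guard cell sample started from 300 leaves of 60 to 70 plants, while 10 leaves of 3 to 4 plants made a leaf sample, and every mutant is represented by 1 allele. The labels are not uniform on whether ABA was given before or after isolation. Guard cells were isolated while leaves were not, so that cell type and isolation cannot be told apart in any comparison of guard cells with leaves.

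Values are the authors' log2 expression values, on which a difference of 1 is a doubling. The lowest value of the data set was 2.42, the first principal component carried 63.4 percent of the variance, and array medians lay between 5.06 and 5.39. Neither AGB1 nor GPA1 has a probe set tied to it alone here, so the mutations were not checked. FMA, a regulator of the guard cell lineage and the 1 measured of 10 guard cell markers, had linear levels of 274 to 531 in guard cells with ABA and 1280 to 3230 in guard cells with EtOH, against 19.5 to 35.3 in leaves with ABA and 27 to 77.8 in leaves with EtOH. The summed linear level of the 5 measured of 9 mesophyll markers (LHCB4.1, LHCB4.2, RCA, PRK and SBPASE) was 3190 to 7790 in guard cells with ABA and 5850 to 10900 in guard cells with EtOH, against 11100 to 20300 in leaves with ABA and 20700 to 35600 in leaves with EtOH. All 5 are genes of photosynthesis, which guard cells with their own chloroplasts may express as well. SWEET11, a sucrose exporter of the phloem and the 1 measured of 4 vascular markers, had linear levels of 17.4 to 44 in guard cells with ABA and 15.2 to 92.2 in guard cells with EtOH, against 440 to 1500 in leaves with ABA and 1710 to 2630 in leaves with EtOH. No marker of epidermis had a named probe set.

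The gene nad6 encodes a membrane subunit of complex I. In guard cells it averaged 9.39 ± 0.45 with ABA and 8.88 ± 0.41 with EtOH in agb1, 9.08 ± 0.37 with ABA and 8.50 ± 0.43 with EtOH in gpa1, 9.24 ± 0.47 with ABA and 8.94 ± 0.16 with EtOH in agb1 gpa1 and 9.42 ± 0.84 with ABA and 9.31 ± 0.84 with EtOH in WT (SD, n = 3 each). In leaves it averaged 4.90 ± 0.97 with ABA and 4.02 ± 0.64 with EtOH in agb1, 4.31 ± 0.24 with ABA and 3.76 ± 0.45 with EtOH in gpa1, 5.05 ± 0.28 with ABA and 4.13 ± 0.08 with EtOH in agb1 gpa1 and 4.99 ± 0.52 with ABA and 3.57 ± 0.04 with EtOH in WT. Every guard cell array was above every leaf array, and the lowest guard cell array lay 2.34 above the highest leaf array. Ordered by mean, the 16 groups split at a gap of 3.46 between gpa1 guard cells with EtOH and agb1 gpa1 leaves with ABA, which was the only 1 of 15 gaps between neighbours larger than the larger SD of the pair.

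**Figure D1:**
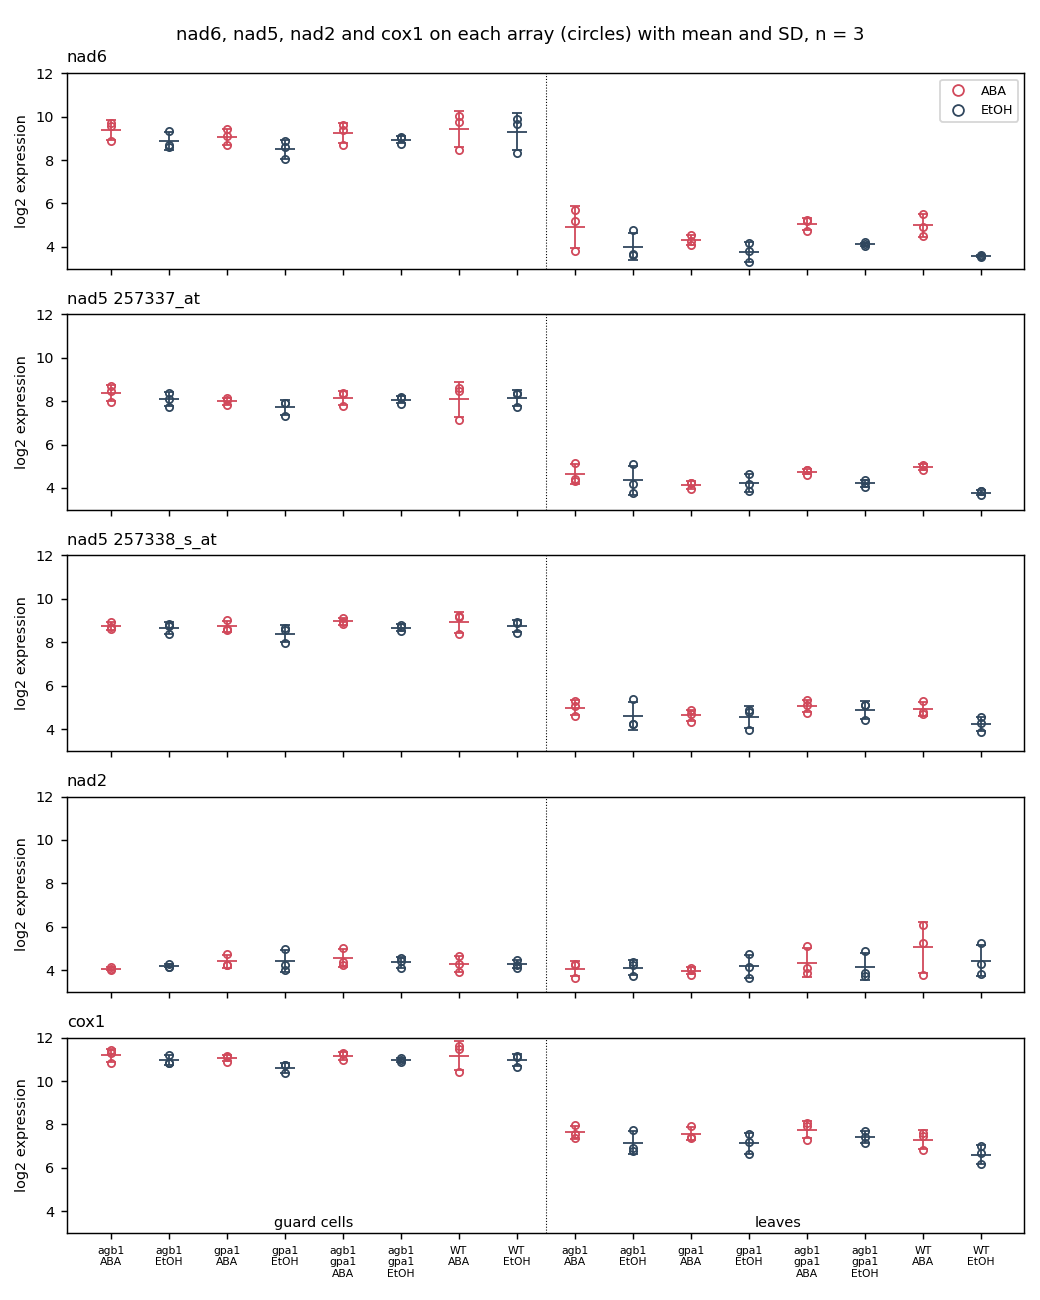
Log2 expression of nad6, nad5 (2 probe sets), nad2 and cox1 on all 48 arrays, with guard cells left of the dotted line and leaves right of it. Circles are arrays, ticks and bars the mean and SD of each group (n = 3), red ABA and dark blue EtOH. Guard cell arrays of nad6 lie between 8.04 and 10.05 and leaf arrays between 3.28 and 5.70, while the nad2 arrays of both sample types overlap.

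The 2 probe sets of nad5, another membrane subunit of complex I on its proton-pumping arm, split the samples the same way. On 257337_at guard cell arrays ran from 7.13 to 8.70 with a median of 8.11, and leaf arrays from 3.68 to 5.17 with a median of 4.29. On 257338_s_at guard cell arrays ran from 7.96 to 9.23 with a median of 8.74, and leaf arrays from 3.89 to 5.36 with a median of 4.77. No guard cell array fell among the leaf arrays on either. By group, 257337_at averaged 8.38 ± 0.37 with ABA and 8.08 ± 0.33 with EtOH in agb1, 7.99 ± 0.17 with ABA and 7.71 ± 0.36 with EtOH in gpa1, 8.17 ± 0.32 with ABA and 8.07 ± 0.18 with EtOH in agb1 gpa1 and 8.08 ± 0.83 with ABA and 8.14 ± 0.36 with EtOH in WT in guard cells. In leaves 257337_at averaged 4.64 ± 0.47 with ABA and 4.35 ± 0.68 with EtOH in agb1, 4.13 ± 0.17 with ABA and 4.23 ± 0.40 with EtOH in gpa1, 4.75 ± 0.13 with ABA and 4.22 ± 0.16 with EtOH in agb1 gpa1 and 4.97 ± 0.13 with ABA and 3.79 ± 0.10 with EtOH in WT. On this probe set 3 of 15 gaps between neighbouring groups exceeded the larger SD of the pair: the split between sample types (2.75), the step from WT leaves with ABA down to the next group (0.22), and the step from gpa1 leaves with ABA down to WT leaves with EtOH (0.34). The genes were picked partly on those WT leaves with EtOH, so their low place is not independent of the picking. Such gaps were counted for these 5 probe sets only. By group, 257338_s_at averaged 8.75 ± 0.18 with ABA and 8.66 ± 0.26 with EtOH in agb1, 8.75 ± 0.25 with ABA and 8.40 ± 0.39 with EtOH in gpa1, 8.97 ± 0.15 with ABA and 8.67 ± 0.16 with EtOH in agb1 gpa1 and 8.92 ± 0.48 with ABA and 8.74 ± 0.27 with EtOH in WT in guard cells. In leaves 257338_s_at averaged 5.0 ± 0.37 with ABA and 4.61 ± 0.66 with EtOH in agb1, 4.64 ± 0.27 with ABA and 4.55 ± 0.51 with EtOH in gpa1, 5.06 ± 0.29 with ABA and 4.87 ± 0.40 with EtOH in agb1 gpa1 and 4.92 ± 0.32 with ABA and 4.24 ± 0.33 with EtOH in WT. Here only 1 gap of 15, the 3.34 between sample types, exceeded the SDs.

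Transcripts of cox1, the catalytic core of complex IV, ran from 10.36 to 11.64 in guard cells with a median of 11.02, and from 6.16 to 8.05 in leaves with a median of 7.40. In guard cells it averaged 11.19 ± 0.31 with ABA and 10.97 ± 0.22 with EtOH in agb1, 11.05 ± 0.14 with ABA and 10.62 ± 0.22 with EtOH in gpa1, 11.17 ± 0.18 with ABA and 10.97 ± 0.10 with EtOH in agb1 gpa1 and 11.18 ± 0.66 with ABA and 10.97 ± 0.30 with EtOH in WT. In leaves it averaged 7.64 ± 0.30 with ABA and 7.16 ± 0.54 with EtOH in agb1, 7.58 ± 0.32 with ABA and 7.13 ± 0.47 with EtOH in gpa1, 7.76 ± 0.41 with ABA and 7.44 ± 0.27 with EtOH in agb1 gpa1 and 7.30 ± 0.43 with ABA and 6.62 ± 0.43 with EtOH in WT. The lowest guard cell array was 2.31 above the highest leaf array. Of 15 gaps 3 exceeded the larger SD: 2.85 between sample types, 0.35 between agb1 gpa1 and gpa1 guard cells with EtOH, and 0.51 between gpa1 and WT leaves with EtOH, the lowest group. That lowest group is again among the arrays on which the genes were picked.

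The remaining gene, nad2, encodes a membrane subunit of complex I like nad6 and nad5, and its probe set did not separate the sample types. Guard cell arrays ran from 3.93 to 5.03 with a median of 4.25, and leaf arrays from 3.66 to 6.10 with a median of 4.13. In guard cells it averaged 4.08 ± 0.07 with ABA and 4.21 ± 0.07 with EtOH in agb1, 4.40 ± 0.30 with ABA and 4.42 ± 0.51 with EtOH in gpa1, 4.55 ± 0.42 with ABA and 4.37 ± 0.25 with EtOH in agb1 gpa1 and 4.29 ± 0.36 with ABA and 4.28 ± 0.19 with EtOH in WT. In leaves it averaged 4.07 ± 0.36 with ABA and 4.12 ± 0.33 with EtOH in agb1, 3.97 ± 0.16 with ABA and 4.18 ± 0.54 with EtOH in gpa1, 4.35 ± 0.66 with ABA and 4.16 ± 0.62 with EtOH in agb1 gpa1 and 5.05 ± 1.17 with ABA and 4.44 ± 0.73 with EtOH in WT. None of the 15 gaps between neighbouring groups exceeded the larger SD. The 2 highest arrays were replicates 1 and 2 of WT leaves with ABA, at 6.10 and 5.27, while replicate 3 of that group was at 3.79. Detection calls were not used here, and whether values this low in the range stand above background is unknown, for nad2 and for the leaf values of nad6 and both nad5 probe sets, most of which lie among or below those of nad2.

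In WT with EtOH, the contrast on which the genes were picked, nad6 had 8.34, 9.68 and 9.90 in guard cells, against 3.57, 3.61 and 3.53 in leaves. That is a difference of 5.74. The differences were 4.35 and 4.50 for nad5 257337_at and 257338_s_at, 4.35 for cox1 and -0.17 for nad2. Of all probe sets, 20 percent were called higher there (limma, adjusted p under 0.05), a share given as background only.

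The other 7 comparisons of guard cells with leaves were tested with limma, with p-values adjusted by the Benjamini-Hochberg method over all 22746 probe sets. Levels of nad6, both nad5 probe sets and cox1 were higher in guard cells in every one of the 7, and nad2 was called in none. With ABA in WT, nad6 had 8.47, 9.75 and 10.05 in guard cells, against 4.92, 4.51 and 5.54 in leaves, a difference of 4.43 (SE 0.408, adjusted p = 2.14e-11, limma). For cox1 the same arrays gave 10.42, 11.64 and 11.48 in guard cells, against 7.47, 6.80 and 7.62 in leaves, a difference of 3.88 (SE 0.286, adjusted p = 9.25e-14, limma). The nad5 probe sets had 7.13, 8.63 and 8.48 on 257337_at in guard cells, against 5.0, 4.82 and 5.08 in leaves, and differed by 3.11 on 257337_at and by 4.00 on 257338_s_at. In that comparison 26 percent of all probe sets were called higher and 53.1 percent had groups that did not overlap, so that being called is common between these sample types and the count alone says little about the 4 genes.

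Over the 7 comparisons nad6 was higher by 4.19 to 4.86 (mean 4.62, largest adjusted p = 9.49e-11). The corresponding range was 3.75 to 4.11 for nad5 257338_s_at, 3.11 to 3.86 for nad5 257337_at and 3.41 to 3.88 for cox1, with largest adjusted p-values of 2.35e-13, 5.8e-11 and 2.88e-12 (limma). In fold terms cox1 was 10.6 to 14.7 times as high in guard cells as in leaves, and no fold is given for nad6 and nad5, whose leaf values have no known distance from background. No group of guard cells overlapped its leaf group on these 4 probe sets. Groups without overlap made up 47.4, 55.7 and 52.8 percent of all probe sets in agb1, gpa1 and agb1 gpa1 with ABA, and 48.9, 51.5 and 54.6 percent in the same mutants with EtOH. The shares of all probe sets called higher were 26 percent in WT with ABA, 21.9, 23.8 and 25.3 percent in agb1, gpa1 and agb1 gpa1 with ABA, and 19.6, 21.8 and 22.7 percent in the same mutants with EtOH. For nad2 the 7 differences ran from -0.77 to 0.43, with 0 called by limma and 0 at an unadjusted p under 0.05. The lowest, in WT with ABA (95% interval -1.57 to 0.04), came from 4.29, 4.64 and 3.93 in guard cells, against 6.10, 5.27 and 3.79 in leaves; without replicate 3 of those leaves it was -1.40 (adjusted p = 0.00236).

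**Figure D2:**
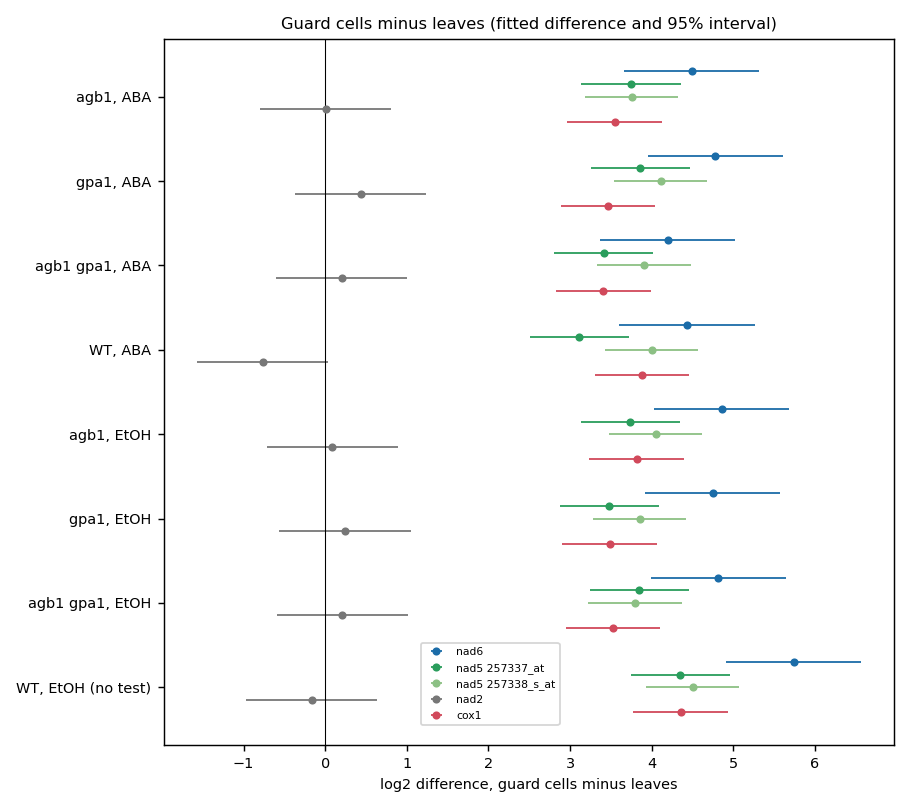
Fitted log2 difference, guard cells minus leaves, for each genotype and treatment (rows), with 95% intervals as horizontal bars and 1 colour for each probe set. WT with EtOH is the contrast the genes were picked on and has no test. The points of nad6, nad5 and cox1 lie between 3.11 and 4.86 in the 7 tested rows, and those of nad2 between -0.77 and 0.43.

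The mitochondrial genome holds further genes with probe sets on the array, and they were nearly all higher in guard cells too. The annotation ties 18 more probe sets to 1 of 12 other mitochondrial genes. Of these 17 were called higher in all 7 comparisons, and nad7, a peripheral-arm subunit of complex I, in 5 of 7 with a mean difference of 0.69. The highest mean differences were 3.93 for nad9, also a complex I subunit, 3.74 for matR, which encodes a maturase for intron splicing, and 3.68 for nad1 257321_at. The lowest after nad7 were 1.23 for nad1 257329_at and 1.31 for nad1 257327_at, so the 7 probe sets of nad1, a membrane subunit of complex I whose transcript is also trans-spliced, spanned 1.23 to 3.68. All 12 probe sets tied to a mitochondrial gene and a further gene, 11 of them with a locus of the chromosome 2 copy, were called higher in 7 of 7, by 1.89 to 3.71 on average. Of the 23 probe sets tied to a single mitochondrial gene, nad6 had the largest mean difference and nad2 the smallest.

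**Figure D3:**
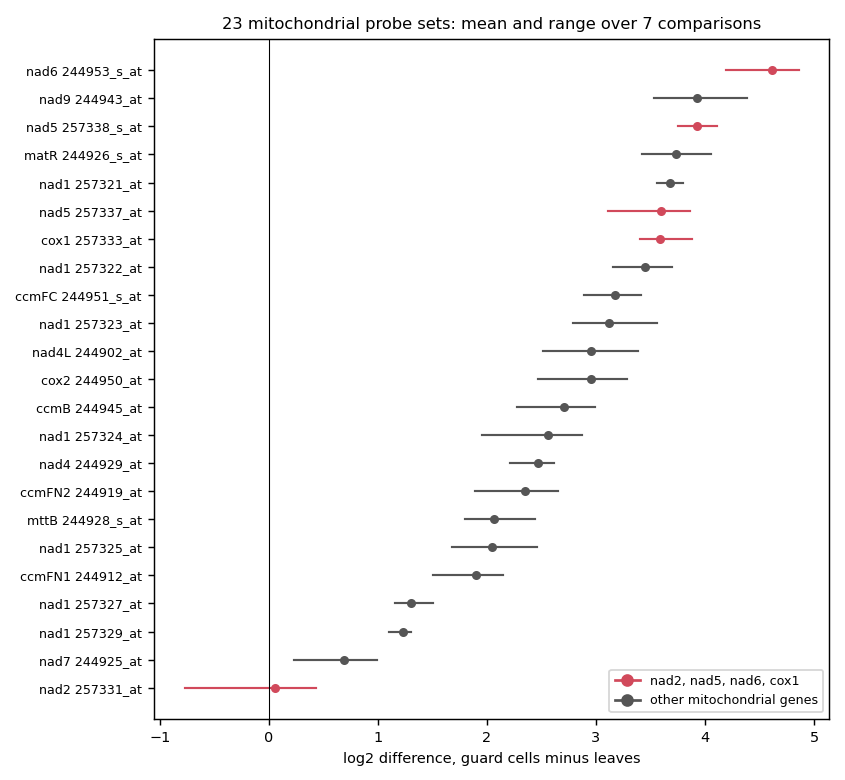
Log2 difference, guard cells minus leaves, of the 23 probe sets tied to 1 mitochondrial gene, as the mean (point) and range (line) over the 7 tested comparisons. Red marks nad2, nad5, nad6 and cox1, and grey the other mitochondrial genes. The means run from 0.06 for nad2 to 4.62 for nad6, and nad1 appears on 7 rows between 1.23 and 3.68.

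Probe sets of the chloroplast genome were called lower more often than higher. Of 69 probe sets tied to a chloroplast gene, 8 were called higher and 29 lower in WT guard cells with ABA against leaves, with a median of -0.52, where 26 percent of all probe sets were called higher and 23.2 percent lower. Over the 7 tested comparisons 3 to 8 were higher and 26 to 41 lower. Of all probe sets, 20.5, 21.1 and 22.7 percent were called lower in agb1, gpa1 and agb1 gpa1 with ABA, and 20.1, 20.7 and 21.4 percent in the same mutants with EtOH. The median of all probe sets in WT with ABA was 0.04, that of the 18 other mitochondrial probe sets 2.59. Beside the organelle genes, 2 to 5 of the 5 mesophyll markers were lower in guard cells in each comparison and none higher, and SWEET11 was lower in all 7, at -5.06 in WT with ABA; their part in the differences of nad6, nad5 and cox1 was not tested. Because each sample is a bulk of cells, fewer cells of a type and less RNA per cell cannot be told apart.

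Nuclear genes that serve the same complexes had differences in both directions, as did all probe sets. In WT with ABA 26 percent of all probe sets were called higher in guard cells and 23.2 percent lower. The ranges over the 7 tested comparisons were 19.6 to 26 percent higher and 20.1 to 23.2 percent lower. The counts called below therefore say little alone about the nuclear genes. Of 4 measured nuclear subunits of complex I (of 13 listed), 2 were higher and 2 lower in WT guard cells with ABA. Over the 7 tested comparisons 1 to 2 of the 4 were higher and 0 to 2 lower. AT2G20360, the 39 kDa subunit, was higher by 0.63 and AT5G11770, the PSST subunit, by 0.55, while AT4G02580, the 24 kDa subunit, was lower at -0.74 and FRO1, the 18 kDa subunit, at -0.60. In WT with EtOH, described without a test, they were at 0.62, 0.61, -0.18 and 0.30 in the same order. Of 10 measured genes of complex IV and cytochrome c (of 15 listed), 2 were higher and 3 lower, with a median of -0.45. Over the 7 tested comparisons 1 to 6 of the 10 were higher and 1 to 3 lower, and their median lay between -0.45 and 0.47, so WT with ABA was the lowest. CYTC-2, a cytochrome c, which carries electrons to complex IV, was higher by 1.23 in WT with ABA. AT3G15640, a COX5b subunit, was lower at -1.70, AT5G61310, a COX5c subunit, at -1.23, and AT4G37830, a COX6a subunit, at -0.84. In WT with EtOH, CYTC-2 was at 2.94, AT3G15640 at -0.74, AT5G61310 at 0.27 and AT4G37830 at -0.07.

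Of 10 measured factors that make or process mitochondrial RNA (of 21 listed), 5 were higher in WT guard cells with ABA and none lower, where 26 percent of all probe sets were called higher and 23.2 percent lower. Over the 7 tested comparisons 5 to 7 were higher and at most 1 lower. AT5G46920, the intron maturase nMAT2, was higher by 1.30, and AT5G15700, the RNA polymerase RPOTmp, by 0.87. AT1G74350, the maturase nMAT4, was higher by 0.75 and so was AT5G14580, a mitochondrial polynucleotide phosphorylase. In WT with EtOH, described without a test, the differences were 0.11 for nMAT2, 0.49 for RPOTmp, 1.07 for nMAT4 and 0.23 for AT5G14580. Of 5 measured type II NAD(P)H dehydrogenases (of 12 genes listed for alternative respiration), which bypass complex I, NDB2 was higher by 2.64 and NDB1 by 0.46 in WT with ABA. In WT with EtOH, NDB2 was at 3.66 and NDB1 at -0.46. The median over all probe sets in WT with ABA was 0.04, against 0.47 for the RNA factors and 0.46 for the alternative dehydrogenases.

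With ABA, nad6 and nad5 257337_at rose in WT leaves. For nad6 the leaves had 4.92, 4.51 and 5.54 with ABA, against 3.57, 3.61 and 3.53 with EtOH, a rise of 1.42 (SE 0.381, adjusted p = 0.00623, limma). For nad5 257337_at they had 5.0, 4.82 and 5.08 with ABA, against 3.86, 3.84 and 3.68 with EtOH, a rise of 1.17 (SE 0.267, adjusted p = 0.00193, limma). On both probe sets every leaf sample with ABA was above every leaf sample with EtOH. Thus 2 of 5 were called higher, where 16.9 percent of all probe sets were called higher and 48.9 percent did not overlap. The EtOH leaves of this comparison are the leaves on which the genes were picked, where nad6, both nad5 probe sets and cox1 had their lowest mean of the 16 groups. The tests of these rises are therefore not independent of the picking. Here and below, the leaf values of nad6 and both nad5 probe sets have no known distance from background.

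The other 3 probe sets had positive differences that did not pass. For cox1, WT leaves had 7.47, 6.80 and 7.62 with ABA, against 6.16, 7.01 and 6.69 with EtOH, a difference of 0.68 (adjusted p = 0.0952, limma), with overlapping groups. For nad5 257338_s_at they had 4.69, 4.79 and 5.28 with ABA, against 3.89, 4.55 and 4.28 with EtOH, a difference of 0.68 (adjusted p = 0.1, limma), and the groups did not overlap. For nad2 the difference was 0.61 (adjusted p = 0.346, limma), with 1 leaf sample with ABA below all leaf samples with EtOH. When arrays were shifted to a common median, the median of all probe sets in this comparison moved by 0.25, and cox1 at 0.93 and nad5 257338_s_at at 0.94 also passed (adjusted p = 0.0279 and 0.0315). That makes 4 of 5, where 40.6 percent of all probe sets were then called higher. Without replicate 2 of the leaves with ABA, cox1 was at 0.93 (adjusted p = 0.0401), and without replicate 3 nad2 was at 1.24 (adjusted p = 0.0425).

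Of the other mitochondrial probe sets, 5 of 18 were called higher with ABA in WT leaves and none lower. Of all probe sets, 16.9 percent were called higher and 21.8 percent lower. With arrays shifted to a common median 9 of 18 were called higher, against 40.6 percent of all probe sets, so these counts say little alone. The leaves with EtOH are again those on which the 4 genes were picked. The 5 were cox2, a core subunit of complex IV, by 1.48, nad1 257325_at by 1.42, ccmB, a factor of cytochrome c maturation, by 1.07, nad4L, a complex I subunit, by 0.99, and ccmFC, another cytochrome c maturation factor, by 0.92. The median of the 18 was 0.45 and that of all probe sets 0.05. Among nuclear genes of complex IV and cytochrome c 8 of 10 rose, with CYTC-2 up by 2.50, AT5G57815, a COX6b subunit, by 1.38, and the COX5c genes AT5G61310 by 1.28 and AT3G62400 by 1.25. Of the nuclear complex I subunits FRO1 rose by 0.69 and AT2G20360 was lower at -0.56, and the other 2 of 4 did not pass. With arrays shifted to a common median, 9 of 10 genes of complex IV and cytochrome c and 1 of 4 of complex I were higher and none lower.

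Of the 10 measured factors of mitochondrial RNA, 3 fell with ABA in WT leaves and none rose, where 21.8 percent of all probe sets were called lower and 16.9 percent higher. They were AT5G46920 (nMAT2) at -1.19, AT1G19290 (TANG2, which takes part in nad5 splicing) at -0.76, and AT5G14580, the polynucleotide phosphorylase, at -0.52. With arrays shifted to a common median, 2 were lower and 2 higher, so no direction of this list as a whole is given. NDB2 rose by 1.66, while NDC1 was lower at -0.90 and NDB1 at -0.76. Alongside, 4 of 5 mesophyll markers were lower with ABA in WT leaves, with differences between -1.01 for LHCB4.2 and -2.19 for PRK. Their summed linear level was 11100 to 18700 in WT leaves with ABA, against 28500 to 35600 in WT leaves with EtOH, the highest of any leaf group. SWEET11 was lower too, at -1.24, and so was the guard cell marker FMA, at -1.12. The part of these markers in the rise of nad6 and nad5 was not tested.

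In leaves of the mutants, 0 of 5 probe sets were called with ABA in any genotype by limma, and 2 of 15 differences had an unadjusted p under 0.05. The shares of all probe sets called higher were 6.93 percent in agb1, 5.37 percent in gpa1 and 5.09 percent in agb1 gpa1. For nad6, agb1 leaves had 3.83, 5.17 and 5.70 with ABA, against 3.67, 3.62 and 4.76 with EtOH, a difference of 0.88 (adjusted p = 0.14, limma) with overlapping groups. In gpa1 leaves nad6 had 4.27, 4.09 and 4.56 with ABA, against 4.18, 3.81 and 3.28 with EtOH, a difference of 0.55 (adjusted p = 0.479, limma), also with overlap. In agb1 gpa1 leaves it had 5.18, 4.73 and 5.23 with ABA, against 4.12, 4.05 and 4.21 with EtOH, a difference of 0.92 (adjusted p = 0.153, limma), and there the groups did not overlap, as was so for 25.4 percent of all probe sets. Fitted on the 6 arrays of agb1 gpa1 leaves alone, that difference had an adjusted p of 0.0305. In agb1 leaves the nad6 difference passed in some fits with 1 array left out. Without replicate 3 with EtOH it was 1.26 (adjusted p = 0.0324, limma), and without replicate 1 with ABA 1.42 (adjusted p = 0.00751, limma). With the replicate number as a block within each genotype it stayed uncalled.

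The response of nad5 257337_at to ABA in leaves was 0.29 in agb1, -0.10 in gpa1, 0.53 in agb1 gpa1 and 1.17 in WT. Its difference from WT was -0.88 in agb1 (adjusted p = 0.374), -1.27 in gpa1 (unadjusted p = 0.00326, adjusted p = 0.109) and -0.65 in agb1 gpa1 (adjusted p = 0.396, limma). All 3 differences use the EtOH leaves of WT on which the genes were picked. The gpa1 response came from 3.93, 4.22 and 4.24 with ABA, against 4.2, 4.65 and 3.85 with EtOH. No probe set of the whole array passed any of the 6 tests of a mutant response against that of WT (0 percent called), and for nad6 these differences in leaves were -0.54, -0.87 and -0.50 in agb1, gpa1 and agb1 gpa1. The 95% interval of the gpa1 difference for nad5 257337_at ran from -2.06 to -0.48. It passed at an adjusted p of 0.0225 when only the 12 arrays compared were fitted, and of 0.0468 without replicate 3 of gpa1 leaves with EtOH.

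**Figure D4:**
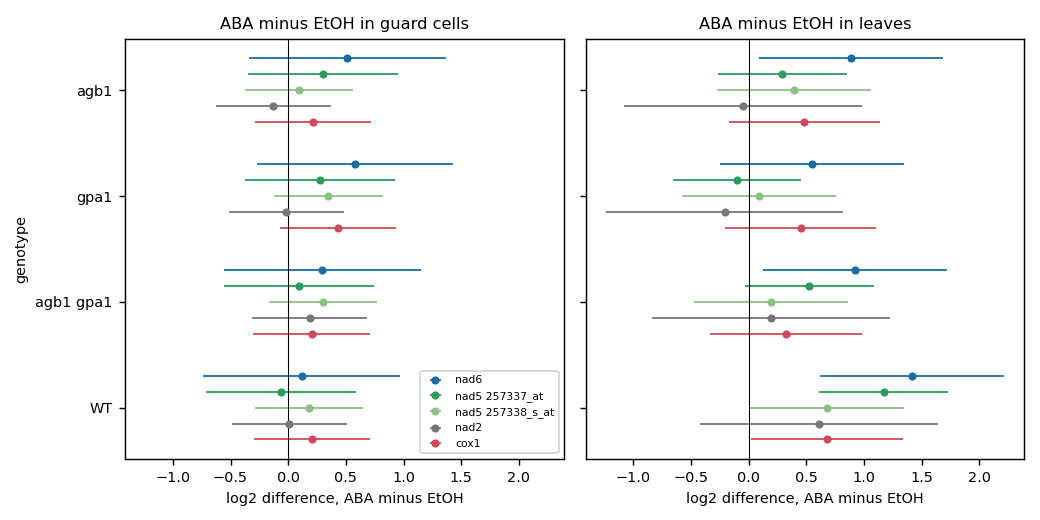
Fitted log2 difference, ABA minus EtOH, in guard cells (left) and leaves (right) by genotype (rows), with 95% intervals and 1 colour for each probe set. In WT leaves nad6 lies at 1.42 and nad5 257337_at at 1.17, and their intervals do not reach 0. In guard cells all intervals, from the fit without pairing, include 0.

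In guard cells ABA left the 5 probe sets uncalled in every genotype in the main fit, which did not pair arrays. There 0 of 20 differences were called by limma and 0 had an unadjusted p under 0.05. The shares of all probe sets called in either direction were 20.2 percent in WT, 15.7 percent in agb1, 20.1 percent in gpa1 and 16.2 percent in agb1 gpa1. For nad6, WT guard cells had 8.47, 9.75 and 10.05 with ABA, against 8.34, 9.68 and 9.90 with EtOH, a difference of 0.12 (95% interval -0.74 to 0.97). In gpa1 guard cells nad6 had 8.71, 9.09 and 9.45 with ABA, against 8.04, 8.58 and 8.89 with EtOH, a difference of 0.58 with overlapping groups. The nad6 differences were 0.51 in agb1 and 0.30 in agb1 gpa1, and those of cox1 were 0.22 in agb1, 0.43 in gpa1, 0.20 in agb1 gpa1 and 0.21 in WT. Of the 12 pairs of guard cell arrays with the same genotype and replicate number, 11 had a higher nad6 value with ABA, and 9 a higher cox1 value. Both nad5 probe sets were higher in 10 and nad2 in 4. Such pairs were not counted over all probe sets, so these counts alone say little about the genes. The WT pairs also use the EtOH arrays on which the genes were picked.

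Same-numbered guard cell arrays deviated together, and the pairing within a genotype changed calls in both single mutants. With the replicate number as a block within each genotype, nad6 passed in agb1 (adjusted p = 0.0217) and in gpa1 (adjusted p = 0.00937), and cox1 in gpa1 (adjusted p = 0.0462, limma). Their differences stayed at 0.51, 0.58 and 0.43. Without the block, 15.7 percent of all probe sets were called in agb1 and 20.1 percent in gpa1. The shares with the block are not given here, so these calls alone say little about the genes. The 3 pairs of gpa1 guard cells differed by 0.67, 0.51 and 0.56 for nad6. Those of WT differed by 0.12, 0.08 and 0.15. In WT the nad5 257337_at value of replicate 1 with ABA was 7.13, the lowest of all guard cell arrays, and without that array cox1 in WT guard cells was at 0.59 (adjusted p = 0.0372).

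Setting the response of guard cells against that of leaves, nad5 257337_at in WT differed by -1.24 (SE 0.423, adjusted p = 0.0304, limma). The responses themselves were -0.07 in WT guard cells and 1.17 in WT leaves. That was 1 of 5 probe sets called, where 23 percent of all probe sets were called in either direction and 10.7 percent lower. For nad6 the difference of responses was -1.30 (adjusted p = 0.103, and adjusted p = 0.0476 with the replicate number as a block), and for cox1 -0.47 (adjusted p = 0.452). In the mutants 0 of 15 such differences were called by limma and 0 had an unadjusted p under 0.05, with shares of all probe sets called of 6.3 percent in agb1, 7.76 percent in gpa1 and 5.53 percent in agb1 gpa1. The 12 arrays of the WT comparison include the 6 on which the genes were picked, and the nad6 and nad5 leaf values have no known distance from background. The nad5 call was lost when only those 12 arrays were fitted (adjusted p = 0.0972) and on leaving out any 1 of 5 arrays: replicate 1 of guard cells with ABA (-0.76, adjusted p = 0.167), replicates 2 and 3 of guard cells with EtOH, replicate 3 of leaves with ABA and replicate 3 of leaves with EtOH (adjusted p between 0.062 and 0.0756). The nad6 difference passed without replicate 3 of guard cells with ABA (-1.62, adjusted p = 0.0483) and without replicate 1 of guard cells with EtOH (-1.79, adjusted p = 0.0222).

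Against WT, the 4 genes were uncalled in the mutants. In 12 comparisons of a mutant with WT, 0 of 60 differences were called by limma and 3 had an unadjusted p under 0.05, all 3 in leaves. The WT arrays with EtOH are those on which the genes were picked, so the mutant differences with EtOH share them. Of all probe sets, the shares called in agb1, gpa1 and agb1 gpa1 were 0.00879, 0.00879 and 0.0132 percent in guard cells with ABA and 0.0308, 0.0176 and 0.0484 percent in guard cells with EtOH. In leaves they were 0.0352, 0.611 and 0.0176 percent with ABA and 0, 0.101 and 6.13 percent with EtOH. With shares this low, the absence of calls says little about the 4 genes. In guard cells the differences ran from -0.80 to 0.31. The lowest was nad6 in gpa1 with EtOH, with 8.04, 8.58 and 8.89 in gpa1, against 8.34, 9.68 and 9.90 in WT (adjusted p = 0.733, limma). In leaves with EtOH cox1 had 7.72, 7.17 and 7.43 in agb1 gpa1, against 6.16, 7.01 and 6.69 in WT, a difference of 0.82 without overlap, like 25.7 percent of all probe sets (adjusted p = 0.118, limma). In leaves with ABA nad5 257337_at had 3.93, 4.22 and 4.24 in gpa1, against 5.0, 4.82 and 5.08 in WT, a difference of -0.83 without overlap, like 30 percent of all probe sets (adjusted p = 0.102, limma). The third was nad2 in the same leaves, at -1.08 (adjusted p = 0.221).

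Within groups, nad6, nad5 and cox1 varied together from array to array. Over the 24 guard cell arrays, deviations from the group mean correlated at r = 0.957 between cox1 and nad5 257337_at, 0.892 between cox1 and nad6 and 0.876 between nad6 and nad5 257337_at. The 2 nad5 probe sets correlated at 0.737 in guard cells and 0.72 in leaves. In leaves the pairs among these 4 probe sets lay between 0.669 and 0.876. Deviations of nad2 ran against the others in guard cells (-0.3 to -0.504) and were near 0 in leaves (-0.04 to 0.19). Arrays of a sample type share their scaling and, in guard cells, the replicate number, and these correlations are given as a description.

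Replicate 1 of guard cells was the lowest of 3 in 7 of 8 groups for nad6 and for nad5 257337_at, in 6 of 8 for cox1 and in 5 of 8 for nad5 257338_s_at. Its mean deviation was -0.52 for nad6, -0.38 for nad5 257337_at and -0.26 for cox1. For nad2 it was 0.21, and replicate 1 was the lowest in 0 of 8 groups. In leaves no replicate number was the lowest in more than 5 of 8 groups for any of the 5. The summed mesophyll markers moved opposite to nad6 within groups, with r = -0.464 over the 24 guard cell arrays and -0.793 over the 24 leaf arrays. For cox1 these values were -0.264 and -0.67, and for nad2 0.231 and 0.331. The guard cell marker FMA also moved opposite to nad6, with r = -0.301 in guard cells and -0.356 in leaves. Its values were -0.231 and -0.423 with cox1, and 0.0894 and 0.194 with nad2.

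**Figure D5:**
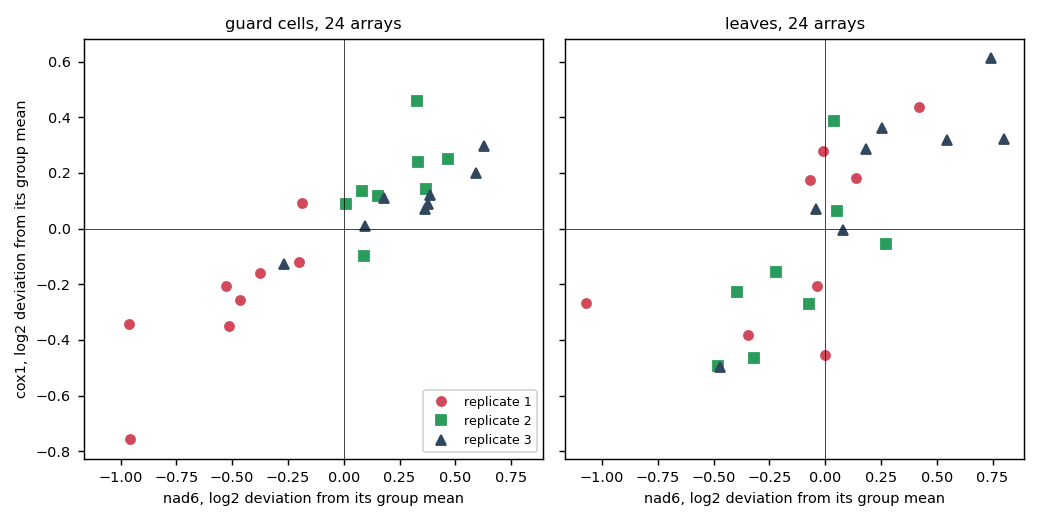
Deviation of cox1 (vertical) against that of nad6 (horizontal) from the mean of the group, in log2, on 24 guard cell arrays (left) and 24 leaf arrays (right). Points are arrays, coloured and shaped by replicate number. Both deviate together (r = 0.892 in guard cells and 0.756 in leaves), and replicate 1 of guard cells (red) lies below 0 for nad6 in all 8 groups.

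By the correlation of the 16 group means, the named probe sets most like nad6 were nad5 257337_at (r = 0.9965), ccmB, AT3G28530, ccmFC and cox2. Those most like cox1 were ccmFC (0.9974), nad5 257338_s_at, HSA32, Fes1A and SP1L2. For nad5 257337_at they were nad6, AT2G07678, nad5 257338_s_at, HSA32 and ccmFC, and for nad5 257338_s_at HSA32 (0.998), cox1, AT2G07708, AT2G07678 and nad1 257321_at. HSA32 is a heat-stress-associated protein and Fes1A a cofactor of HSP70 chaperones, both known for heat tolerance. Between 773 and 894 probe sets exceeded 0.95 for each of these 4, since any probe set with a large difference between guard cells and leaves scores high. Over the 8 guard cell means alone, cox2 had r = 0.94 and ccmFC 0.931 with nad6, and nad1 257321_at 0.555 with nad5 257338_s_at. HSA32 had 0.567 with cox1, 0.637 with nad5 257338_s_at and 0.209 with nad5 257337_at over the guard cell means, and 0.897, 0.932 and 0.826 with the same 3 over the 8 leaf means. The probe sets most like nad2 were AT1G64560 (0.9077), AT4G11710, AT1G43240, AT4G36230 and AT3G15930, and none exceeded 0.95.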

How the data were processed

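The deposited values are log2 expression levels, made by the authors with RMA in affy, per the submitters' processing notes. Software versions, and whether the 48 arrays were normalized as 1 set, are not given in the sources used here. From these values, 64 control probe sets were left out and 22746 tested. Genes were named through GEO's platform annotation and a RefSeq gene table: 13513 probe sets have 1 gene, 503 several and 8730 none, and only those with 1 gene are named. Sequences and coordinates were not used here. Group means of every probe set were fitted by limma 3.58.1 (R 4.3.3), on all 48 arrays between sample types and on 24 within one. Tests were two-sided, adjusted by the Benjamini-Hochberg method, and called at an adjusted p under 0.05. The number of arrays, 3 a group, limits the precision. The script was tested on simulated data.

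The 4 genes, the gene lists and the rules below were chosen with earlier results of these data known. Named are all probe sets of the 4 genes, the 3 highest and 3 lowest other mitochondrial ones in guard cells against leaves and any called with ABA in WT leaves, up to 4 called genes of each nuclear list with the largest difference, the measured markers, and the 5 named probe sets most like each member. Same-numbered arrays deviated together in all 4 ABA comparisons of guard cells (r of deviations 0.204 to 0.644) and in that of agb1 leaves (0.524 to 0.661). That pairing comes from this check, since the labels only share the numbers. The main tests left the pairing out, and only the fits with a block used the replicate number. Alternatives were a common array median, leaving out the dimmest 25 percent of probe sets, fitting only the arrays compared, the replicate number as a block, and leaving out each array. A block within genotype was added after seeing the data.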

Additional observations from a re-analysis of the deposited data

Results flagged for a closer look

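The response of nad5 257337_at to ABA differed between guard cells and leaves of WT by -1.24 (SE 0.423, adjusted p = 0.0304, limma). It was picked out because the difference of the 2 responses itself passed the test. The WT arrays with EtOH in that test are those on which the genes were picked, so it is not independent of the picking. Its leaf values also have no known distance from background. The call was lost when only the arrays compared were fitted (adjusted p = 0.0972, limma) and on leaving out some single arrays. The values were 7.13, 8.63 and 8.48 in guard cells with ABA and 7.73, 8.37 and 8.33 in guard cells with EtOH, and 5.0, 4.82 and 5.08 in leaves with ABA and 3.86, 3.84 and 3.68 in leaves with EtOH. The other nad5 probe set, 257338_s_at, differed by -0.51 (adjusted p = 0.407).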

How the results depend on the processing

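In the 7 tested comparisons of guard cells with leaves, nad6, both nad5 probe sets and cox1 stayed called higher under every alternative run, and nad2 stayed uncalled except without replicate 3 of WT leaves with ABA (-1.40). No call of the 5 probe sets turned its direction. With arrays at a common median, 4 in place of 2 of 5 were called for ABA in WT leaves. With the replicate number as a block, 2 in place of 1 were called for the response of WT guard cells against WT leaves (nad6 at -1.30), and no other call of the 5 changed; with the block within genotype, 1 was called for ABA in agb1 guard cells and 2 in gpa1 guard cells, in place of 0. With only the arrays compared, 0 in place of 1 were called for the response of WT guard cells against leaves, and 1 in place of 0 for ABA in agb1 gpa1 leaves, for agb1 gpa1 against WT leaves with EtOH (nad6 at 0.56, adjusted p = 0.0479), for gpa1 against WT leaves with ABA (nad5 257337_at at -0.83, adjusted p = 0.0283) and for the response of gpa1 against WT leaves. Leaving out 1 array at a time gave 0 to 2 calls for the response of WT guard cells against leaves, and 0 to 1 for ABA in WT guard cells, for ABA in agb1 leaves and for the response of gpa1 against WT leaves. The cause of these changes was not tested, and those with fewer arrays also have another estimate of the spread. Shares of all probe sets called with a block or with fewer arrays are not given here.

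The common median moved the median of all probe sets by 0.25 for ABA in WT leaves, where 3848 were called higher and 4964 lower, against 9231 and 3821 after it. The next shares are of the called probe sets only, not of all probe sets. Among those called in WT with EtOH, guard cells against leaves, the share that was higher moved to 66.3 percent, against 47.4 percent. For ABA in agb1 and agb1 gpa1 leaves it moved to 60.5 and 62.5 percent, against 47.7 and 50.1 percent. For agb1 gpa1 against WT leaves with EtOH it moved to 44.5 percent, against 31.2 percent, and for the response of WT guard cells against leaves to 37.1 percent, against 53.6 percent. Leaving out dim probe sets changed no call of the 5. No probe set was tied to 1 of the 4 genes and a further gene, so the alternative with such probe sets had none to add. Without detection calls, values near the bottom of the range, as for nad2 and for nad6 and nad5 in leaves, have no known distance from background.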
